A study of Mus musculus with 2 samples.

Results

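The 7 microRNA (miRNA) genes described here are Mir99b, Mirlet7e and Mir125a, which lie side by side on mouse chromosome 17, and their relatives Mir99a, Mir100, Mir125b-1 and Mir125b-2 on chromosomes 16 and 9. They were chosen by name, as the cluster and the genes of the same 2 families outside it, among 1178 annotated mouse miRNA hairpins. Their reads were the sequenced tags of 18 to 30 nt that equal a stretch of one of their hairpins, directly or after 1 to 3 nt were trimmed at the 3' end. They held 4092 of 7403427 miRNA reads in the first library of the series and 488 of 3643308 in the second.

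The 2 libraries were made from small RNA of C57BL/6J mouse spleen cells enriched on CD11c beads. The cells were stained with an antibody to Ia, the mouse MHC class II molecule, and sorted at a stated purity above 95% into a population with high surface Ia (Ia_high) and one with low surface Ia (Ia_low). The labels call both dendritic cells and give no number of animals, age or treatment. Each population was sequenced as a single library, so the spread between replicates is unknown, no test was made and no p-value is given. Fewer cells of a kind and less RNA per cell cannot be told apart in such pools.

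A miRNA is cut from a hairpin transcript as a pair of short arms, 5p and 3p, and usually 1 of them is kept by an Argonaute protein. Its seed, bases 2 to 8, does most of the pairing with target mRNAs, so that miRNAs with a common seed form a family with overlapping targets. The let-7 family is known for restraining growth and stem-cell genes. The miR-125 family is known in blood for acting on apoptosis and differentiation genes, and the miR-99 and miR-100 family for acting on the mTOR pathway.

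Mature sequences are shown because the members fall into 3 seed groups that cut across their genome positions. They come from RefSeq, build GRCm38.p6, are written 5' to 3', and carry the seed in capitals. The first seed is shared by miR-99b of the chromosome 17 cluster and by miR-99a and miR-100.
miR-99b-5p: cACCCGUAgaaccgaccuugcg
miR-99a-5p: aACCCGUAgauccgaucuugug
miR-100-5p: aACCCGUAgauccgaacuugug
Counted from 1 at the 5' end of miR-99a-5p, miR-100-5p differs by the single substitution U16A, and miR-99b-5p by A1C, U11A, U16C and U21C. All these changes lie outside the seed.

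The second seed is shared by miR-125a of the cluster, miR-125b and miR-351, a gene on the X chromosome that is not a member but matters to the family total given further on.
miR-125a-5p: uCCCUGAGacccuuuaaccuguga
miR-125b-5p: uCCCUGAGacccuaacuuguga
miR-351-5p: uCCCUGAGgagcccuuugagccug
miR-125a-5p and miR-125b-5p share their first 13 bases. Mature miR-125b-5p has the same sequence from both of its genes, so its reads were counted together.

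The third seed is that of let-7. let-7e-5p is shown with let-7a-5p, an abundant family member from which it differs by U9G, counted from the 5' end of let-7a-5p, just after the seed.
let-7e-5p: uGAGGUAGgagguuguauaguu
let-7a-5p: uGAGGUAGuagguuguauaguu

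In the GENCODE M21 annotation of GRCm38, the cluster spans 692 bases of the plus strand of chromosome 17. Mir99b lies at chr17:17830188-17830257, Mirlet7e at chr17:17830352-17830444 and Mir125a at chr17:17830812-17830879, with gaps of 94 and 367 bases. The first 2 lie in introns of the protein-coding gene Spaca6, on its strand, and Mir125a overlaps a Spaca6 exon. The other loci repeat the order miR-99 or miR-100, let-7, miR-125 over far longer stretches. On chromosome 16, Mir99a (chr16:77598936-77599000), Mirlet7c-1 and Mir125b-2 (chr16:77646273-77646343, in an intron of Mir99ahg) span 47408 bases. On chromosome 9, Mir100 (chr9:41531425-41531504), Mirlet7a-2 and Mir125b-1 (chr9:41581926-41582002) span 50578 bases, in introns of the noncoding genes 3110039I08Rik and Gm49317.

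The chromosome 17 cluster was much less frequent in Ia_low than in Ia_high. It was read 3251 times in Ia_high and 300 times in Ia_low, which is 439 and 82.3 reads per 1000000 miRNA reads (CPM), 5.33-fold lower in Ia_low with a 95% interval of 3.77 to 7.78. The 4 genes at the other loci together had 841 and 188 reads, or 114 and 51.6 CPM, 2.20-fold lower with an interval of 1.40 to 3.64. The 2 intervals of fold do not overlap, but those of the log2 ratios do when only untailed reads are counted (-2.16 for the cluster and -1.48 for the other loci) or distinct tags (-1.17 and -0.88), and with the most abundant tag of each arm the 2 were alike in value (-1.50 and -1.52). The cluster supplied 79.4% of member reads in Ia_high (interval 76.8 to 81.9) and 61.5% in Ia_low (47.3 to 74.4), but 74.8% and 75.2% with the most abundant tag of each arm.

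All intervals are exact (Clopper-Pearson) and cover counting error only, since PCR copies were not marked. Those of miRNA reads were widened by dividing counts by 4 in Ia_high and 9 in Ia_low. These are the most common numbers of reads per tag, with tags read once set aside. An arm that averaged at least 10 CPM over the libraries was called lower or higher when its CPM differed by 2-fold or more and the interval of the ratio excluded 1. Of the 13 member arms, 12 had a read in Ia_high and 6 in Ia_low, and 5 reached that average. The other 8 were too rare for a call, at averages of 0 to 5.81 CPM. Of those 5, 4 were called lower in Ia_low and none higher. Among all 258 arms at that level, 27.9% were called lower and 8.91% higher. The median log2 ratio of Ia_low over Ia_high was -2.02 over the 5 member arms and -0.32 over all 258.

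miR-99b-5p, the most abundant member in Ia_high, had 1634 reads there (221 CPM) and 105 reads in Ia_low (28.8 CPM). It was 7.66-fold lower in Ia_low (interval 4.30 to 15.1) and stood 15th of the 258 arms counted from the lowest ratio. miR-125a-5p had 920 reads (124 CPM) and 112 reads (30.7 CPM), 4.04-fold lower (2.29 to 7.83). let-7e-5p had 659 reads (89.0 CPM) and 83 reads (22.8 CPM), 3.91-fold lower (2.02 to 8.60). The ratios of the 3 cluster arms have overlapping intervals, and no interval was made of their differences.

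The order within the cluster did change in the point values. Mir99b held 51.2% of cluster reads in Ia_high (47.7 to 54.6) and 35.0% in Ia_low (19.4 to 53.4), with intervals that overlap. Mir125a held 28.4% (25.3 to 31.6) and 37.3% (21.3 to 55.7), and Mirlet7e 20.5% (17.8 to 23.4) and 27.7% (13.7 to 45.8). In Ia_low the 3 arms lay between 22.8 and 30.7 CPM, and their order there is within counting error. In Ia_high miR-99b-5p stood above both others.

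miR-99a-5p had 416 reads in Ia_high (56.2 CPM) and 36 in Ia_low (9.88 CPM), 5.69-fold lower (2.16 to 21.3), and was called lower. miR-125b-5p had 280 reads (37.8 CPM) and 122 reads (33.5 CPM), a ratio of 0.885 with an interval of 0.456 to 1.60, and was called neither higher nor lower. The ratio intervals of miR-99a-5p (0.0470 to 0.464) and miR-125b-5p overlap slightly. Overlap alone does not show whether counting error separates these relatives, and no interval of their difference was made. In Ia_high miR-125b-5p stood below the 4 called arms, but its CPM interval (29.5 to 47.8) overlaps that of miR-99a-5p (45.9 to 68.1). In Ia_low miR-125b-5p was level with the 3 cluster arms within counting error. Its reads without a tail in Ia_low numbered 51, against 110 for miR-125a-5p, 79 for let-7e-5p and 75 for miR-99b-5p. Its ratio interval and that of miR-125a-5p (0.128 to 0.436) do not overlap, but they do with untailed reads only (log2 ratios of -0.84 and -1.80), with distinct tags (0.09 and -0.60) and with the most abundant tag (-0.996 and -1.23).

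miR-100-5p was rare in both libraries, with 25 reads in Ia_high (3.38 CPM) and 30 in Ia_low (8.23 CPM). Its mean lay under 10 CPM and it was not called. The ratio was 2.44 with an interval of 0.440 to 10.8, which includes both no difference and a large one.

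**Figure D1:**
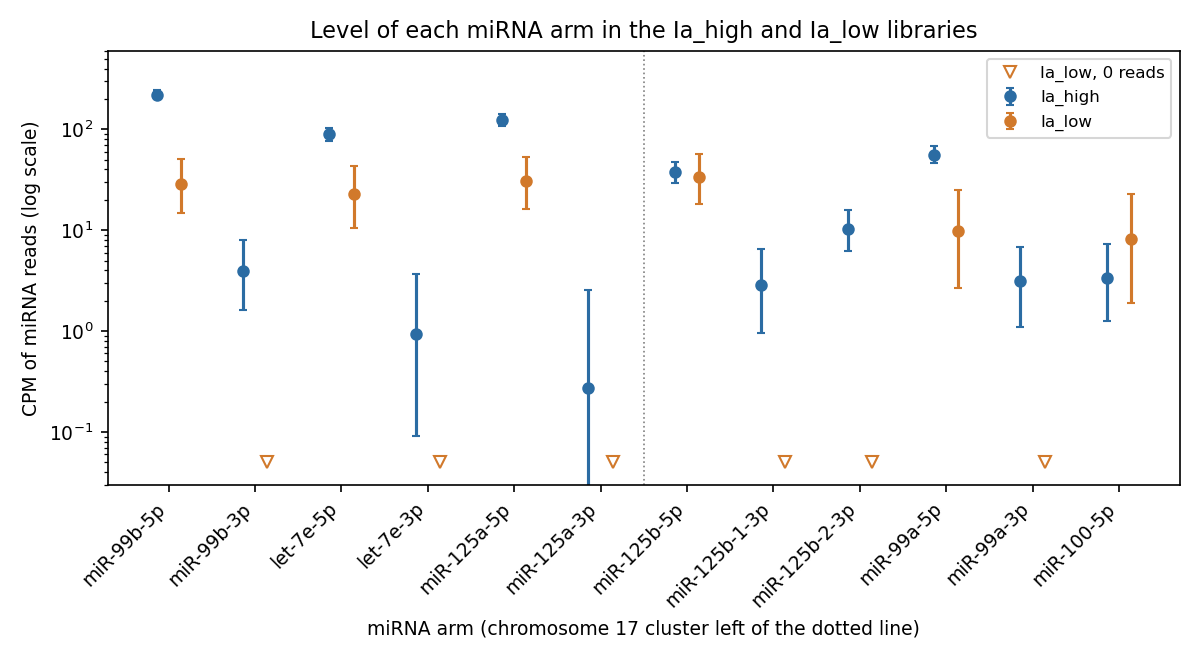
Reads per 1000000 miRNA reads (CPM, log axis) of the 12 member arms with a read, in the Ia_high (blue) and Ia_low (orange) libraries, with 95% counting intervals as bars, open triangles near the axis for arms with 0 reads in Ia_low, and the chromosome 17 cluster left of the dotted line. The points of miR-99b-5p, let-7e-5p, miR-125a-5p and miR-99a-5p lie well apart between the libraries, those of miR-125b-5p lie together (37.8 and 33.5 CPM), and the bar of miR-125a-3p runs off the lower axis.

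The 3p arms were seen in Ia_high alone, with 158 of 4092 member reads (3.86%, interval 2.77 to 5.23) against 0 of 488 in Ia_low, where the interval reaches 6.58%. At this depth the shares cannot be told apart. miR-125b-2-3p was the most frequent, with 76 reads in Ia_high (10.3 CPM) and 0 in Ia_low. Against a floor of 3 reads in Ia_low it was at least 12.5-fold lower, but with counts divided by the reads per tag the bound was only 1.02-fold. miR-99b-3p had 29 reads, miR-99a-3p 23, miR-125b-1-3p 21, let-7e-3p 7 and miR-125a-3p 2 in Ia_high, each with 0 in Ia_low, and no read of miR-100-3p was seen in either library. All 29 reads of miR-99b-3p and 17 of the 21 of miR-125b-1-3p matched only after trimming.

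The 3p arms, which differ in sequence, tell the miR-125b genes apart. Untailed 5p reads of 23 nt, 4 in Ia_high and 10 in Ia_low, are longer than the shared sequence and were not divided by gene. In Ia_high, Mir125b-2 on chromosome 16 gave 76 reads of its 3p arm and Mir125b-1 on chromosome 9 gave 21. Of these, 57 and 4 matched without trimming. Together the 3p arms made up 25.7% of the miR-125b reads in Ia_high (17.3 to 35.8). The 3p share was 5.24% for Mir99a (1.89 to 11.2), 1.74% for Mir99b (0.718 to 3.52), 1.05% for Mirlet7e and 0.217% for Mir125a. Since the 5p reads of Mir125b-1 and Mir125b-2 were counted together, the 25.7% describes these 2 genes as a pair.

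**Figure D2:**
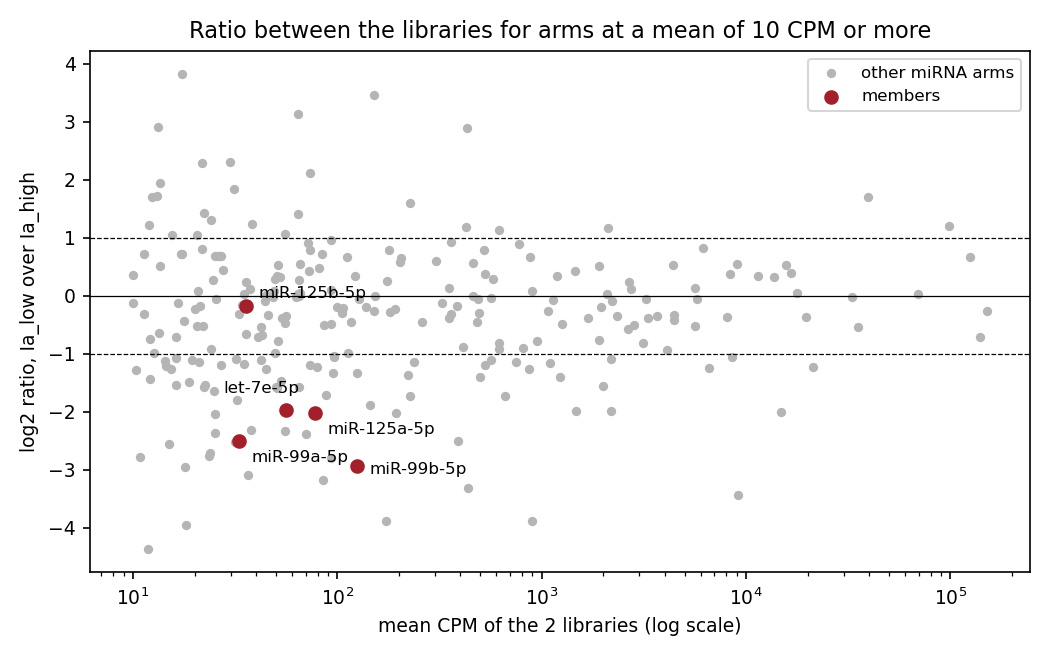
Log2 ratio of CPM, Ia_low over Ia_high, against the mean CPM of both libraries (log axis) for arms that average at least 10 CPM, with the 5 member arms in red and dashed lines at 2-fold. The 5 arms without a read in Ia_low have no ratio and are not drawn; 4 members lie at log2 ratios of -1.97 to -2.94, below the lower dashed line, and miR-125b-5p lies at -0.18.

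Ranked from the lowest ratio among the 258 arms, miR-99a-5p stood 23rd, miR-125a-5p 30th, let-7e-5p 34th and miR-125b-5p 144th. The arms whose log2 ratio was nearest to that of the cluster (-2.41) were miR-132-3p at -2.38 (870 and 82 reads), miR-363-3p at -2.36 (313 and 30 reads) and miR-128-1-5p at -2.32 (681 and 67 reads). This likeness rests on 1 ratio between 2 libraries.

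The libraries differed in more than Ia. miRNAs took 45.2% of all reads in Ia_high and 26.5% in Ia_low. Scaled to all reads, every log2 ratio fell by 0.77, and centred on the median arm every one rose by 0.30. The cluster stayed lower in both (log2 ratios of -3.18 and -2.12), as did its 3 arms and miR-99a-5p, whereas the pool of the other loci was no longer called when centred (-0.84). miR-125b-5p was not called in either, at 0.12 when centred and -0.94 when scaled to all reads. The latter has an interval of -1.90 to -0.09, which excludes no difference. Of the arms called, 75.8% were lower with the miRNA scaling, 96.5% when scaled to all reads and 60% when centred. let-7e-5p was no longer called when distinct tags were counted in place of reads (log2 ratio -0.69) or when only its most abundant tag was used (-0.81). With distinct tags, miR-125a-5p (-0.60) and miR-99a-5p (-1.47) were not called either, and miR-99b-5p was (-1.60).

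Grouped by seed, the members made up very different parts of their families. Reads with the seed ACCCGUA numbered 2026 in Ia_high and 171 in Ia_low (274 and 46.9 CPM), a ratio of 0.172 with an interval of 0.102 to 0.271. miR-99b-5p made up 78.8% of them in Ia_high and 61.4% in Ia_low, miR-99a-5p 20.04% and 21.1%, and miR-100-5p 1.14% (0.407 to 2.49) and 17.5% (4.22 to 41.6). All 3 genes of this family are members, so its lower level is theirs, and the log2 ratio of the family was -2.54, -3.31 when scaled to all reads and -2.25 when centred.

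For the seed CCCUGAG the family total did not follow the members. It came to 3095 reads in Ia_high and 2353 in Ia_low (418 and 646 CPM), a ratio of 1.54 (1.34 to 1.78), whose log2 value of 0.63 turned to -0.14 when scaled to all reads. miR-351-5p made up 61.8% of these reads in Ia_high and 90.9% in Ia_low, while miR-125a-5p made up 29.7% and 4.76% and miR-125b-5p 8.47% and 4.29%. miR-351-5p itself had 1913 and 2140 reads that began at its RefSeq start, or 258 and 587 CPM.

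Within let-7 the member was a trace. let-7e-5p held 0.0310% of 2128432 let-7 reads in Ia_high and 0.00867% of 957034 in Ia_low. The family total had a ratio of 0.914. None of the other 8 let-7 arms was as far below 1 as let-7e-5p, with log2 ratios from -0.39 (miR-98-5p) to 1.13 (let-7b-5p) against -1.97 for let-7e-5p. The let-7 arm encoded between Mir99a and Mir125b-2, let-7c-5p, which has a second gene elsewhere, had a ratio of 1.78 where miR-99a-5p was 5.69-fold lower.

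**Figure D3:**
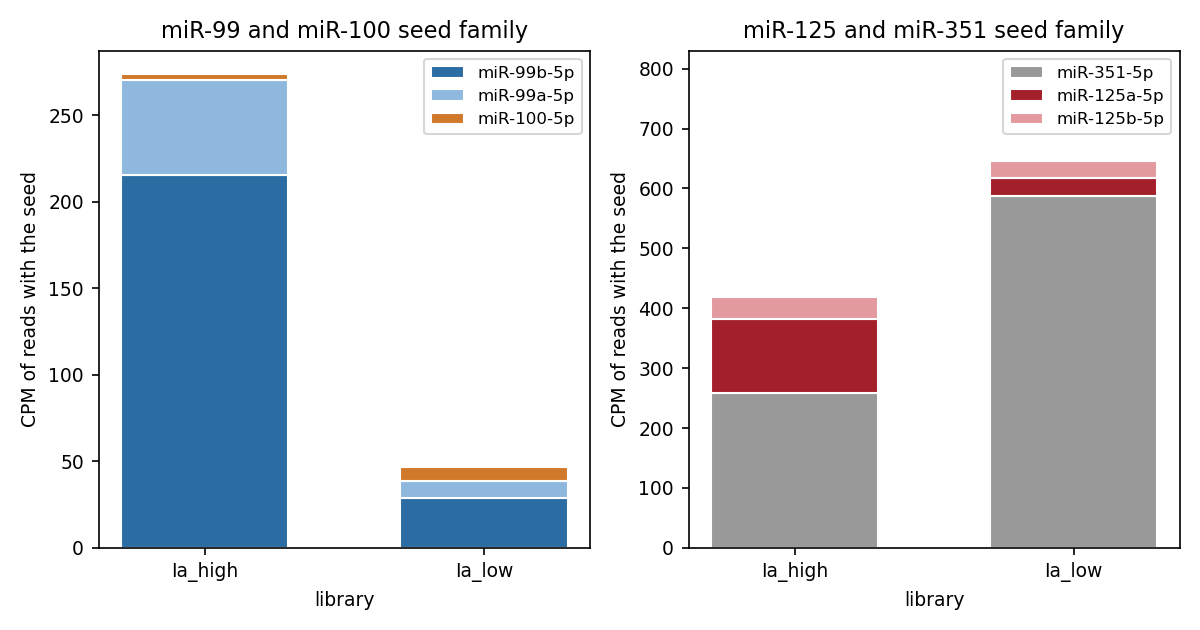
Stacked CPM of the reads with the seed ACCCGUA (left) and CCCUGAG (right) in the Ia_high and Ia_low libraries, coloured by arm. The left family drops from 274 to 46.9 CPM with miR-99b-5p the main part of both bars, and in the right family miR-351-5p makes up 258 of 418 and 587 of 646 CPM.

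Because let-7e-5p differs from the far more abundant let-7a-5p by 1 base, its tags were set against the other single substitutions of the let-7a-5p tag of the same length. Left out were 2 substitutions that equal let-7f-5p (G12A) and let-7c-5p (A19G), and those of the last base, which a tail on a tag 1 nt shorter would also give. The 22 nt let-7e tag is shown first and the 21 nt tag after it, with letters as sequenced (T for U).
let-7e-5p, 22 nt: tgaggtaggaggttgtatagtt
let-7e-5p, 21 nt: tgaggtaggaggttgtatagt
The 22 nt tag had 308 reads in Ia_high, which is 0.203% of the 151835 let-7a reads of that length, and 78 in Ia_low, 0.105% of 74210. The 60 substitutions compared had medians of 0.00724% and 0.00606%. None of these reached the let-7e tag in Ia_high, and 1 did in Ia_low, U1G with 142 reads (0.191%). Other changes at position 9 reached at most 32 and 17 reads. At the last base, which was left out, U22A had 2745 and 1130 reads and U22C 311 and 160, all above the let-7e tag.

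The 21 nt tag was frequent in Ia_high alone, with 195 reads against 44482 of let-7a (0.438%), and none of the 57 substitutions compared reached it, while U21A at the last base, left out as before, had 1495. In Ia_low it had 1 read against 20030 (0.00499%), and 37 of the 57 had as many or more, so that read cannot be told apart from errors in let-7a. Among let-7e tags of 21 and 22 nt, 38.8% were of 21 nt in Ia_high (30.2 to 47.9) and 1.27% in Ia_low, with an upper limit of 36.2%. The intervals overlap. In the other 8 let-7 arms this share differed, Ia_low minus Ia_high, by -8.41 to 1.30 percentage points, for example let-7a-5p with 22.7% and 21.3% and let-7b-5p with 39.2% and 30.7%.

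**Figure D4:**
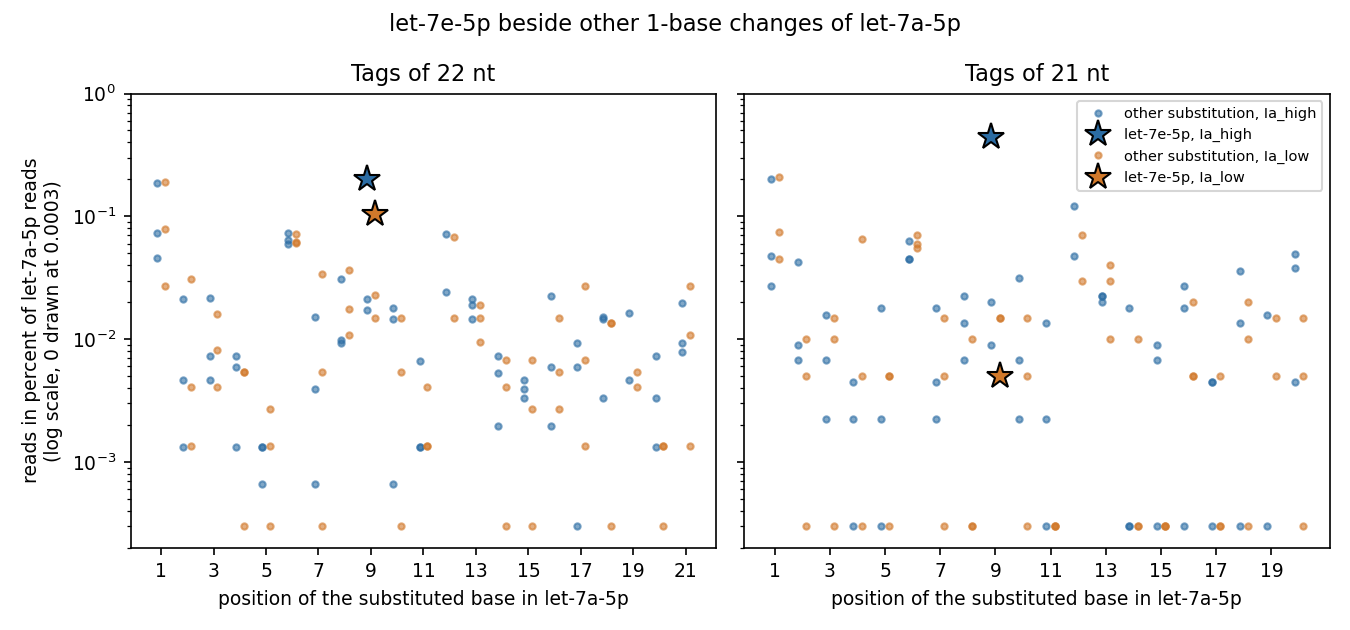
Reads of single-base variants of the let-7a-5p tag as a percentage of its own reads (log axis, variants with 0 reads drawn at the bottom) by the position of the change (the last base and variants equal to other let-7 arms left out), for tags of 22 nt (left) and 21 nt (right) in Ia_high (blue) and Ia_low (orange), with the variant that equals let-7e-5p drawn as a star. At 22 nt the let-7e variant stands at 0.203% in Ia_high and 0.105% in Ia_low, and at 21 nt at 0.438% and 0.00499%.

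miR-100-5p differs from miR-99a-5p by U16A and was checked in the same way. Its 22 nt tag had 1 read in Ia_high, beside 228 of miR-99a-5p, and 21 in Ia_low, beside 13. Its 21 nt tag had 17 reads in Ia_high, beside 82, and 0 in Ia_low, beside 23. Other single substitutions of the miR-99a-5p tags had at most 1 read, so the 1 read of 22 nt in Ia_high does not stand out from them. miR-100-5p was thus seen mainly as a 21 nt tag in Ia_high and as a 22 nt tag in Ia_low, where a further tag with 2 untemplated bases had 9 reads.

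The 3' ends also differed among the members. A tail here is 1 to 3 nt at the 3' end that the hairpin does not hold. Of all member reads, 21.3% carried one in Ia_high (18.9 to 23.97) and 23.8% in Ia_low (13.3 to 37.3). The median arm with 100 reads or more in each library, 180 arms, had 19.7% and 27.5%. For the cluster the shares were 21.2% and 12.0% (3.37 to 27.9 in Ia_low), and for the other loci 21.998% (16.6 to 28.2) and 42.6% (21.5 to 65.8).

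miR-125b-5p carried most of that. Its full-length tag without a tail, the same tag with an added A, and a tailed tag that begins 1 base later are shown because they exchange rank between the libraries, with the added base in capitals.
miR-125b-5p, 22 nt: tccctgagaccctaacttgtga
miR-125b-5p with A: tccctgagaccctaacttgtgaA
miR-125b-5p from base 2 with A: ccctgagaccctaacttgtgaA
In Ia_high and Ia_low the untailed tag was read 130 and 29 times, the tag with A 32 and 54 times, and the shifted tag 7 and 16. The tag with A was the most frequent form in Ia_low and the third most frequent in Ia_high.

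Tails made of A stood on 19.3% of miR-125b-5p reads in Ia_high (10.8 to 30.5) and on 57.4% in Ia_low (28.6 to 82.9). The difference of 38.1 percentage points was the highest of the 180 arms, whose median difference was 0 with quartiles of -1.56 and 1.24, but the intervals of the 2 libraries overlap and it rests on 70 reads, of which 54 are 1 tag. Counted without tails, miR-125b-5p had 199 and 51 reads, a log2 ratio of -0.84 in place of -0.18, and was still not called.

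miR-99b-5p had tails on 26.3% and 28.6% of its reads. In Ia_high, A tails (14.5%) and U tails (11.02%) were both common. let-7e-5p had tails on 21.4% in Ia_high and on 4 of 83 reads in Ia_low, miR-125a-5p on 9.67% and on 2 of 112, and miR-99a-5p on 14.9% and on 0 of 36. The last 3 went against the median arm, which had 4.12 percentage points more tails in Ia_low, and the intervals in Ia_low are wide (up to 39.9%, 28.5% and 60.2%).

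Among reads without tails, 96.3% or more of each 5p arm were 20 to 24 nt long in each library. The tags of the chromosome 17 arms with the most reads show how the 3' end varied.
miR-99b-5p, 21 nt: cacccgtagaaccgaccttgc
miR-99b-5p, 22 nt: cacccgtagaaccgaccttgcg
miR-125a-5p, 22 nt: tccctgagaccctttaacctgt
miR-125a-5p, 24 nt: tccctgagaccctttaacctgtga
The 21 nt form of miR-99b-5p led in both libraries, with 588 and 55 reads against 481 and 20 for the 22 nt form. miR-125a-5p was spread over 3 lengths, with 305 and 58 reads at 22 nt, 154 and 22 at 23 nt, and 311 and 30 at 24 nt, so its 24 nt RefSeq form held 33.8% and 26.8% of its reads. The mean length of the median arm was 0.20 nt greater in Ia_low. miR-99a-5p (-0.21 nt) and miR-125a-5p (-0.11 nt) were shorter there, against that drift, and let-7e-5p (0.44 nt) was longer.

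The 5' ends, which set the seed, were fixed for most members. All reads of let-7e-5p and miR-125a-5p began at the RefSeq start in both libraries, as did 97.7% and 100% of miR-99b-5p and 97.6% and 100% of miR-99a-5p. miR-125b-5p was looser, with 92.1% (83.2 to 97.2) and 82.8% (53.2 to 97.3), counted on the Mir125b-1 hairpin only. In Ia_high this count was 258 of 280 reads, whereas 262 carried the seed at bases 2 to 8. In Ia_low both counts were 101.

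**Figure D5:**
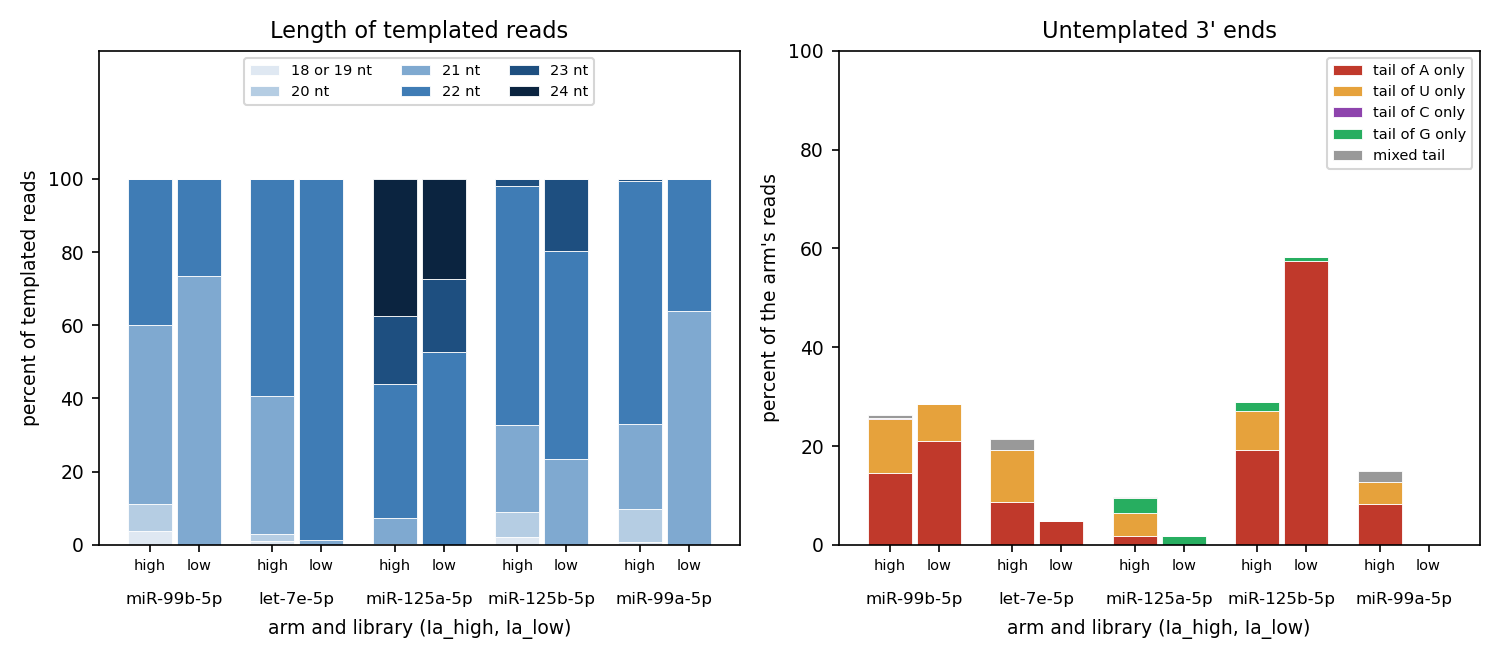
Left, lengths of untailed reads of the 5 main member arms in both libraries (stacked, percent of the arm's untailed reads). Right, reads with an untemplated 3' tail (percent of the arm's reads), coloured by the added base: miR-125b-5p has the highest bar, 58.2% in Ia_low against 28.9% in Ia_high, and the 21 nt reads of let-7e-5p on the left are almost all in Ia_high.

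Fragments of mRNA of 20 to 30 nt in the same libraries gave a view of targets and of cell markers. Counted as distinct fragments (320140 in Ia_high and 132375 in Ia_low), 6933 genes had 10 or more, of which 9.58% were called lower and 6.35% higher in Ia_low by the same fold and an exact interval of the undivided counts, and the median log2 ratio was -0.14. Host transcripts were almost unseen, with 1 and 2 fragments of Spaca6 and 1 and 1 of Mir99ahg, so nothing can be said of transcription at these loci.

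Of 9 known targets of the miR-125 family, 8 were measured, 2 were called higher in Ia_low, 1 lower and 5 neither, with a median log2 ratio of 0.46. Prdm1, which encodes the transcription factor Blimp-1, had 8 and 20 fragments (6.05-fold higher, interval 2.55 to 15.9), and Klf13, another transcription factor, had 222 and 204 (2.22-fold, 1.83 to 2.70). Irf4, a transcription factor of dendritic and B lineage cells, had 116 and 14 (3.43-fold lower). Tnfaip3, which encodes the NF-kappaB inhibitor A20, had 389 and 156, a ratio of 0.970.

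Of 7 targets of miR-99 and miR-100, 5 were measured and 1 was called higher, with a median log2 ratio of 0.18. Igf1r, the receptor of insulin-like growth factor, had 13 and 16 fragments (2.98-fold higher, 1.34 to 6.73). Mtor, the kinase for which the family is known, had 27 and 10, a ratio of 0.896 (0.387 to 1.91), and Akt1, a kinase upstream of it, had 69 and 39, a ratio of 1.37. Of 17 let-7 targets, 9 were measured, with 1 higher (Arid3a, 2.98-fold), 1 lower (Ccnd1, the gene of cyclin D1, with 127 and 4 fragments, 13.1-fold) and 7 neither, and a median of 0.05. The miR-125 and let-7 lists thus held calls in both directions, and the miR-99 and miR-100 list held 1 call, higher.

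The markers of the sorted cells moved between the libraries too. Of 7 dendritic cell genes, 5 were called lower in Ia_low, among them Flt3 (163 and 6 fragments), Zbtb46 (56 and 1) and H2-Aa and H2-Ab1, which encode the Ia molecule used for the sort (2.13-fold and 2.06-fold lower), and their summed level was 12723 and 6973 fragments per 1000000. Of 5 genes of the cross-presenting cDC1 subset, 4 were called lower (4229 and 1118 per 1000000, median log2 ratio -2.53), such as Cadm1 with 102 and 0 fragments and Clec9a with 96 and 2. Of 6 genes of Ly6C-low monocytes, 5 were called higher (4832 and 11800 per 1000000). The defining dendritic cell gene Zbtb46 was close to absent from Ia_low, and for this gene Ia_low goes against its label. The 2 dendritic cell genes not called were Itgax, the CD11c gene (322 and 79 fragments), and Cd74 (1371 and 441), both present in Ia_low. Kit, a receptor of blood progenitors, had 183 and 7 fragments (10.8-fold lower), while the other 4 progenitor genes had at most 4 in either library. Stromal and endothelial genes, of cell types in which miR-99 and miR-125 members are known to be abundant, were low in both (119 and 121 per 1000000 over 9 genes), with Col1a1, Col3a1, Dcn and Sparc at 0. Most of these fragments came from Pecam1 (27 and 7) and Vwf (9 and 6), while Cdh5 had 2 and 1. Macrophage genes summed to 950 and 589 per 1000000, with 3 of 4 measured called lower. The other, Adgre1, went the opposite way with 103 and 70 fragments, a ratio of 1.64 (1.20 to 2.25) short of 2-fold. It held 70 of the 78 macrophage fragments in Ia_low. B cell genes had 29 and 6 fragments in all, T cell genes 32 and 0, all of them Tcf7, and erythroid genes 2 and 0. The part of the cell makeup in the lower level of the miRNAs was not tested.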

How the data were processed

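The authors deposited, for each library, a raw read count for every distinct tag, with no scaling. Per the labels' protocols, RNA under 30 bases was ligated to a pair of adaptors, amplified for 12 cycles and isolated at about 90 bp. How the authors trimmed adaptors, and with which build, is not given in the sources used here. Tags were matched to 1178 GENCODE M21 hairpins without mismatch, or after 1 to 3 nt were trimmed with 15 nt or more left, and arms were split at the hairpin's middle. Tags that matched several arms (0.515% and 0.270% of miRNA reads, none of them the members') were left out. The genome was not matched, so a tail is only absent from the hairpin. A floor of 3 reads is 0.405 CPM in Ia_high and 0.823 in Ia_low. All member arms are named, with the 3 arms nearest to the cluster's ratio and the listed genes. The members, lists and rules were chosen with earlier results of these data known. The comparison of 21 and 22 nt let-7 tags, of A tails and the chromosome 9 transcripts were added after the values were seen. In simulated data with counting error as the only noise, the call rule found 46.55% of arms changed 2-fold and 93.6% of those changed 4-fold. It also called 5% of unchanged arms. Most arms were changed in that simulation, which can shift the library totals, and the calls were not corrected for such a shift. For genes the shares were 37.8%, 82.5% and 1.91%. Python 3.11.15, numpy 2.4.6, scipy 1.17.1 and matplotlib 3.10.9 were used.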

Additional observations from a re-analysis of the deposited data

How the results depend on the processing

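With 1 library per population no library could be left out. No paired analysis was possible because each population has 1 library. Over 9 other settings the cluster was called lower in all 9, the other loci in 6, miR-99b-5p in 9, miR-125a-5p and miR-99a-5p in 8 and let-7e-5p in 7, and miR-125b-5p in none. No direction reversed for a called value. Scaled to all reads, the log2 ratio was -3.18 for the cluster and -1.91 for the other loci, and 110 arms were called lower and 4 higher, against 72 and 23. With distinct tags the cluster was at -1.17, its share in Ia_high was 59.2%, 15 arms were lower and 3 higher, member tails were 57.1% and 41.7% of tags, and 76.2% of Ia_high tags were 20 to 24 nt long. With the most abundant tag of each arm the cluster was at -1.50, the other loci at -1.52, and the cluster's share was 74.8% and 75.2%. At 1.5-fold 37 arms were higher, and at 3-fold 41 were lower and 14 higher. The other loci were not called when centred, with distinct tags (-0.88) or with Ia_high weighted by read length (-0.94). With mRNA reads in place of fragments, 1405 genes were lower and 798 higher, against 664 and 440. The depth of Ia_low limits every member, since 488 reads, divided by 9 as stated, leave wide intervals, and 3p arms of a few CPM could not be measured there.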
